A study of Homo sapiens with 6 samples.

Results

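The mRNAs described here encode the core machinery that makes microRNAs and uses them to silence mRNAs. They are the 4 Argonaute genes (*AGO1*, *AGO2*, *AGO3* and *AGO4*), the 3 *TNRC6* genes (*TNRC6A*, *TNRC6B* and *TNRC6C*), *DICER1*, *DROSHA* and *DGCR8*. They were selected by gene name and not by a measured value, although earlier results of these data were known by then. Each of the 10 names matched 1 of the 60655 genes in the count table. The question was whether these mRNAs were recovered more, or less, by an antibody against the RNA-binding protein IGF2BP3 than by a control antibody. RNA immunoprecipitation sequencing (RIP-seq) was performed in WaGa cells, an established Merkel cell carcinoma (MCC) line that carries Merkel cell polyomavirus. Protein with its bound RNA was pulled down from cell lysate, and the RNA was sequenced in paired-end reads of 150 bp. There were 3 libraries from IGF2BP3 immunoprecipitation (IP) and 3 from IgG IP, the negative control, all from untreated wild-type cells of this 1 line. RNA of the lysate before IP was not analysed here, so the amount of an mRNA in the cells and its recovery by the antibody cannot be told apart beyond the comparison with IgG IP. In such bulk libraries, fewer cells that hold an mRNA and less of it per cell cannot be told apart either.

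MicroRNAs start as hairpins in longer transcripts. The Microprocessor, made of the nuclease DROSHA and its RNA-binding partner DGCR8, cuts the hairpin out in the nucleus, exportin 5 carries it to the cytoplasm, and DICER1 trims it to a short duplex. One strand enters an Argonaute protein and pairs with target mRNAs mainly through its seed, the bases near its 5′ end, while a TNRC6 (GW182) protein bound to Argonaute recruits the deadenylases that shorten the mRNA's tail. IGF2BP3 belongs to a family of RNA-binding proteins that recognise CA-rich elements and are known as readers of N6-methyladenosine, a mark placed mostly within GGAC-type motifs, and it is a known target of the let-7 microRNAs.

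Several of the 10 mRNAs hold matches to short motifs known for both kinds of regulator, at which binding was not measured. Those that best show the difference between members are printed here. The first set is let-7a-5p (RefSeq, GRCh38.p14, here from the *MIRLET7A3* copy at chr22:46112752-46112773 on the plus strand) with its seed, bases 2 to 8, in capitals. It is followed by sites in *DICER1*, *AGO1* and *AGO3* whose capitals, CTACCTC, are complementary to that seed. *DICER1* is shown because it has the most matches of the members, 4, and all lie in the coding sequence. The matches of *TNRC6C*, not printed, are all coding as well. The *DICER1* sites lie on the minus strand of GRCh38 in GENCODE version 44, in exon 21 (chr14:95103737-95103766 and chr14:95103629-95103658) and exon 24 (chr14:95094095-95094124). The printed *AGO1* and *AGO3* sites lie on the plus strand in the 3′ untranslated region (UTR) of exon 19, at chr1:35920681-35920710 and chr1:36069077-36069106. *AGO3* has 1 further match, not printed, in the coding sequence of exon 2.
let-7a-5p: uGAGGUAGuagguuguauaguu
*DICER1*, exon 21: cgtgcaaccaaCTACCTCatattccattca
*DICER1*, exon 21: tgctaacaaatCTACCTCagatggaagtcc
*DICER1*, exon 24: gcgattttggaCTACCTCataaccaagcac
*AGO1*, exon 19: ccttattcctcCTACCTCccgccccgccca
*AGO3*, exon 19: cctgtcctcacCTACCTCactaaattgttg

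The second set shows the longest runs of alternating C and A among the members, in capitals, from the 3′ UTRs of *AGO3* (plus strand, exon 19, chr1:36061219-36061248) and *TNRC6B* (plus strand, exon 23, chr22:40333351-40333380). The runs are 14 and 15 bases long. They are set side by side because these mRNAs have the most matches to CACACA and their fitted recovery values, given below, were not alike. The 95% confidence intervals of those values overlapped, and the difference between the 2 mRNAs was not tested.
*AGO3*: tataatctCACACACACACACAaagggaaa
*TNRC6B*: aacaaaagACACACACACACACAaaaaccc

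Motifs were counted on the transcript strand of the GENCODE canonical transcripts, with overlapping matches counted. CTACCTC was found in 5 of the 10 mRNAs, against 24.2% of 11867 tested coding transcripts. *DICER1* had 4 matches, all coding, a number that only 0.219% of those transcripts reached. *AGO2*, *AGO3* and *TNRC6C* had 2 each, and *AGO1* had 1. CACACA was found in 9 of the 10, against 59.2% of transcripts. *TNRC6B* held 21 and *AGO3* held 18, or 1.15 and 0.916 per kb, where the median transcript had 0.227, and *DROSHA* held 0. GGAC was found in 99.4% of transcripts and in all 10 members. The 10 transcripts are long. They ran from 4506 bases (*DGCR8*) to 19660 bases (*AGO3*), above the median of 3487 in all 10, and 9 of the 10 had a 3′ UTR longer than the median of 1402 bases. A long transcript holds more matches of any short motif, so the counts describe the mRNAs and do not locate a binding site.

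The libraries held between 9758759 and 14886414 counts on genes. In each group replicate 1 differed most from the others. Within a group, chi-square per degree of freedom was 16.4 to 19.7 for pairs that held replicate 1 and 2.13 to 3.06 for replicate 2 against replicate 3. The labels do not say whether the replicates came from separate cultures, so p-values measure the spread between these libraries, which may be technical. All 9 Merkel and neuroendocrine markers examined had a median above 1 TPM (the authors' length-scaled abundance estimate), with *KRT20* between 430.4 and 633 TPM. None of 15 lymphocyte, fibroblast, keratinocyte, melanocyte and endothelial markers did, and their summed level per list was at most 1.42 TPM in any library.

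None of the 10 mRNAs was called enriched or lower in the IGF2BP3 IP. A call needed a 1.5-fold difference or more (0.585 on the log2 scale) together with an adjusted p under 0.05 (edgeR's quasi-likelihood test, Benjamini-Hochberg over the 14507 genes that passed its expression filter). All 10 members passed that filter. Among all tested genes, 1.16% were called higher and 0.0% lower. DESeq2 and limma-voom called 0 members as well. At an unadjusted p under 0.05, 3 members passed, *AGO2*, *TNRC6B* and *DROSHA*, all with positive values, in the test where 12.8% of all genes did. The fitted log2 fold changes ran from −0.06 for *DICER1* to 0.40 for *TNRC6B*. Their median was 0.15, against −0.006 over all tested genes, and 7 of the 10 were positive, against 48.9% of all genes. For 7 members the 95% confidence interval (CI) of the log2 fold change ended below a 1.5-fold increase. It reached that size for *AGO2*, *TNRC6B* and *TNRC6C*, so an enrichment of 1.5-fold was within the error of these 3.

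The replicate numbers are shared by both groups, and libraries with the same number deviated together from their group means (gene-wise correlations 0.57, 0.28 and 0.23). Replicates 2 and 3 also did so when crossed (0.28 and 0.27), so these values set apart only replicate 1. What a number shares is not stated in the labels. A fit that takes the replicate number as a block was made beside the one without it. With the replicate block, the same 3 members had an adjusted p under 0.05, with no fold minimum, a result that 16.2% of all genes gave in that fit. For *AGO2* and *TNRC6B* the adjusted p was also under 0.05 with the block in DESeq2 (0.000115 and 0.00336). The same held in edgeR's condition-only fit without both replicate 1 libraries (0.000212 and 0.000741). For *DROSHA* it was above 0.05 in both. With any 1 library left out of edgeR's condition-only fit, neither *AGO2* nor *TNRC6B* was under 0.05 (0.075 to 0.603 for each). Nor were they with a correction for transcript length (0.295 and 0.376) or for GC content (0.319 and 0.296). With the block added to the GC correction both were (5.45e-05 and 8.54e-05). For log2(TPM + 1) values limma returned 0.817 and 0.916. None of the 3 members reached 1.5-fold with the block, so 0 were called with it, where 3.67% of all genes were. In the condition-only fit, 1.4% of genes had an adjusted p under 0.05 with no fold minimum, and 0 members did. With no filter beyond 1 count, *AGO2* had an adjusted p of 0.0299 in edgeR's condition-only fit, where 554 of 29184 genes were under 0.05.

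**Figure D1:**
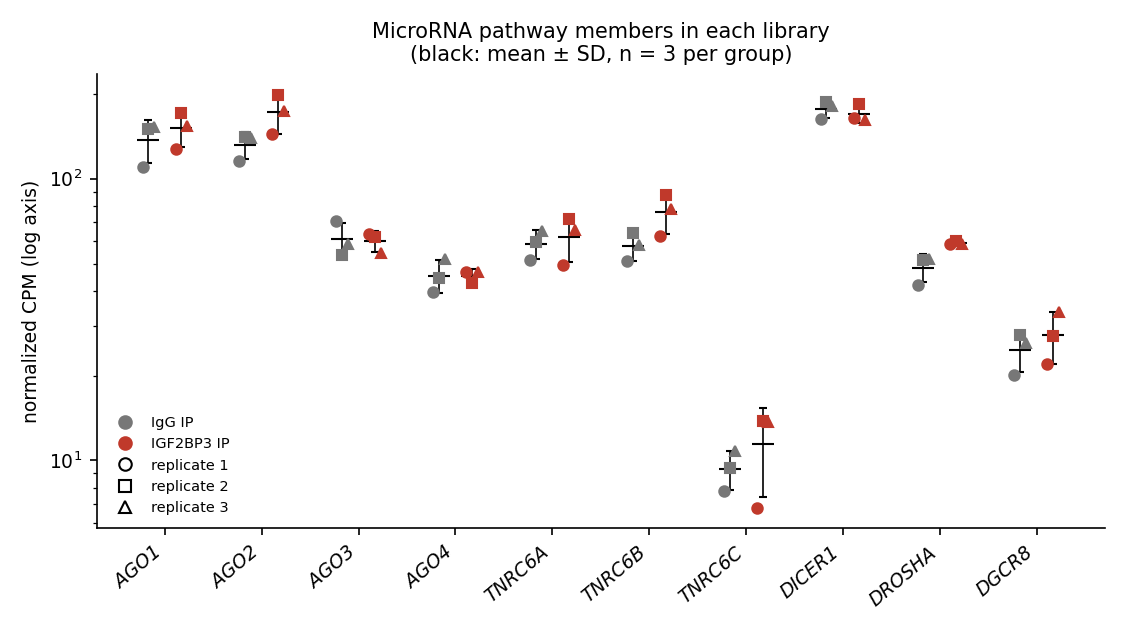
Normalized CPM (counts scaled by TMM-adjusted library size, log axis) of the 10 mRNAs in the 3 IgG IP libraries (grey) and the 3 IGF2BP3 IP libraries (red). Shapes mark replicates 1 to 3, and black lines give mean ± SD (n = 3). The groups are separate for *AGO2* (115 to 141 against 144 to 199) and *DROSHA* (42.1 to 51.7 against 58.4 to 60.0) and overlap for the other 8.

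Among the Argonautes, which hold the microRNA, *AGO2* had the highest log2 fold change. AGO2 is the member of the family best known for cutting a fully paired target. Its gene (ENSG00000123908.12) lies on the minus strand of chromosome 8 from 140520156 to 140635633 of GRCh38, with 19 exons in the canonical transcript. *AGO2* had 115, 141 and 139.6 normalized CPM (counts scaled to the library's size after TMM normalization) in the 3 IgG IP libraries (in the order of replicates 1 to 3) and 144, 199 and 174 in those of the IGF2BP3 IP. The lowest IGF2BP3 IP library thus lay just above the highest IgG IP library. The means were 172 ± 27.5 and 132 ± 14.5 (SD, n = 3). The log2 fold change was 0.38 (SE 0.13, 95% CI 0.09 to 0.67), or 1.30-fold, with an adjusted p of 0.251 in edgeR's quasi-likelihood test, Benjamini-Hochberg. The exact two-sided permutation test gave p = 0.10, the smallest that 3 libraries against 3 allow. Within pairs of the same replicate number, the log2 differences were 0.32, 0.49 and 0.31, and the replicate block gave an adjusted p of 7.05e-05 (edgeR, Benjamini-Hochberg). The value was 0.20 after a correction for transcript length, where the median of all genes was −0.05. On the log2(TPM + 1) scale it was 0.45 above the median of all genes.

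*AGO1*, *AGO3* and *AGO4*, which lie next to each other on chromosome 1, showed values near those of the control. *AGO1* (ENSG00000092847.13, plus strand, 35869808 to 35930532, 19 exons) had 109.6, 150.1 and 153 CPM in the 3 IgG IP libraries and 128, 172 and 154 in IGF2BP3 IP. Its groups overlapped, and its log2 fold change was 0.135 (SE 0.15, adjusted p = 0.755 in edgeR's quasi-likelihood test, Benjamini-Hochberg). *AGO3* (ENSG00000126070.20, plus strand, 35930718 to 36072500, 19 exons) had 70.6, 53.4 and 58.8 CPM in IgG IP and 63.8, 62.2 and 54.3 in IGF2BP3 IP. The highest *AGO3* value was thus in an IgG IP library, replicate 1, where the other 3 Argonautes had their lowest. *AGO4* (ENSG00000134698.11, plus strand, 35808016 to 35857890, 18 exons) had 39.7, 44.4 and 51.8 CPM in IgG IP and 46.7, 42.6 and 46.7 in IGF2BP3 IP, all within the range of the IgG IP. The log2 fold changes of *AGO3* and *AGO4* were −0.02 (95% CI −0.29 to 0.26) and −0.001 (−0.26 to 0.26). A 1.5-fold change either way was outside both intervals. The sign of *AGO3* turned with the scaling (0.05 above the median of all genes on the log2(TPM + 1) scale). *AGO4* was 0.07 above that median, and its −0.001 was too small to give it a sign.

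The TNRC6 proteins are the scaffolds that link Argonaute to the deadenylases. *TNRC6B* (ENSG00000100354.21, chromosome 22, plus strand, 40044817 to 40335808, 23 exons) had the highest log2 fold change of the 10. It had 50.8, 64.4 and 58.1 CPM in the 3 IgG IP libraries and 62.8, 87.6 and 78.3 in IGF2BP3 IP. The groups overlapped by a small margin, since IGF2BP3 IP replicate 1 lay below IgG IP replicate 2. The means were 76.2 ± 12.5 and 57.8 ± 6.79 (SD, n = 3), and the log2 fold change was 0.40 (SE 0.14, 95% CI 0.09 to 0.71), or 1.32-fold. Its adjusted p was 0.259 in edgeR's quasi-likelihood test, Benjamini-Hochberg, and 0.0002 with the replicate block. The within-pair log2 differences were 0.305, 0.44 and 0.43, positive in all 3 pairs. After the length correction the value was 0.21, against a median of −0.05 over all genes.

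*TNRC6A* (ENSG00000090905.19, chromosome 16, plus strand, 24610209 to 24827632, 25 exons) had 51.5, 59.7 and 65.1 CPM in IgG IP and 49.4, 71.7 and 65.6 in IGF2BP3 IP. The lowest of its 6 values was in the IGF2BP3 IP, and the log2 fold change was 0.08 (95% CI −0.25 to 0.42). It was −0.05 after the length correction, as was the median of all genes. *TNRC6C* (ENSG00000078687.17, chromosome 17, plus strand, 77958703 to 78108822, 23 exons) had the fewest reads of the 10, from 72 to 182 counts per library. Its values were 7.8, 9.38 and 10.8 CPM in IgG IP and 6.8, 13.8 and 13.7 in IGF2BP3 IP. The spread within the IGF2BP3 IP was thus wider than the distance between the groups. The log2 fold change was 0.285 with a 95% confidence interval from −0.31 to 0.88, the widest of the members, and it turned to −0.21 relative to the median of all genes on the log2(TPM + 1) scale. Neither gene passed the test (adjusted p = 0.871 and 0.702 in edgeR's quasi-likelihood test, Benjamini-Hochberg).

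*DICER1* (ENSG00000100697.15, chromosome 14, minus strand, 95086228 to 95158010, 27 exons) encodes the cytoplasmic nuclease that makes the mature duplex, and its mRNA carries the coding let-7 matches printed above. It had 162, 187 and 181 CPM in the 3 IgG IP libraries and 165, 184 and 161 in IGF2BP3 IP. The groups covered nearly the same range. The log2 fold change was −0.06 (SE 0.09, adjusted p = 0.845 in edgeR's quasi-likelihood test, Benjamini-Hochberg), and its 95% confidence interval, from −0.26 to 0.15, was the narrowest of the 10. The interval left out a 1.5-fold increase and a 1.5-fold decrease.

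The nuclear Microprocessor genes gave positive values. *DROSHA* (ENSG00000113360.17, chromosome 5, minus strand, 31400494 to 31532196, 36 exons), the nuclease, had 42.1, 51.4 and 51.7 CPM in IgG IP and 58.4, 60.0 and 58.9 in IGF2BP3 IP. The IGF2BP3 IP values lay close together and above all those of the IgG IP, with means of 59.1 ± 0.796 and 48.4 ± 5.48 (SD, n = 3). The log2 fold change was 0.285 (SE 0.10, 95% CI 0.05 to 0.52), or 1.22-fold, and the exact two-sided permutation test gave its smallest possible p of 0.10. The adjusted p was 0.285 in edgeR's quasi-likelihood test, Benjamini-Hochberg, and 0.0115 with the replicate block. With the block in DESeq2 it was 0.105, above the threshold, and without both replicate 1 libraries it was 0.104 in edgeR. In edgeR it was 0.00536 with a term for replicate 1 in place of the block, and 0.012 with the block and a correction for GC content. The value was 0.04 above the median of all genes on the log2(TPM + 1) scale. *DGCR8* (ENSG00000128191.16, chromosome 22, plus strand, 20080221 to 20111877, 14 exons), the RNA-binding partner, had 20.1, 27.8 and 26.1 CPM in IgG IP and 22.1, 27.6 and 33.6 in IGF2BP3 IP. Its groups overlapped, and the log2 fold change was 0.17 (SE 0.18, adjusted p = 0.753 in the same edgeR test).

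Of the 10 members, *AGO2* and *DROSHA* had 3 IGF2BP3 IP values that all exceeded the 3 IgG IP values, as 12.0% of all tested genes did. For 0 members, and for 8.69% of all genes, all 3 were lower.

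**Figure D2:**
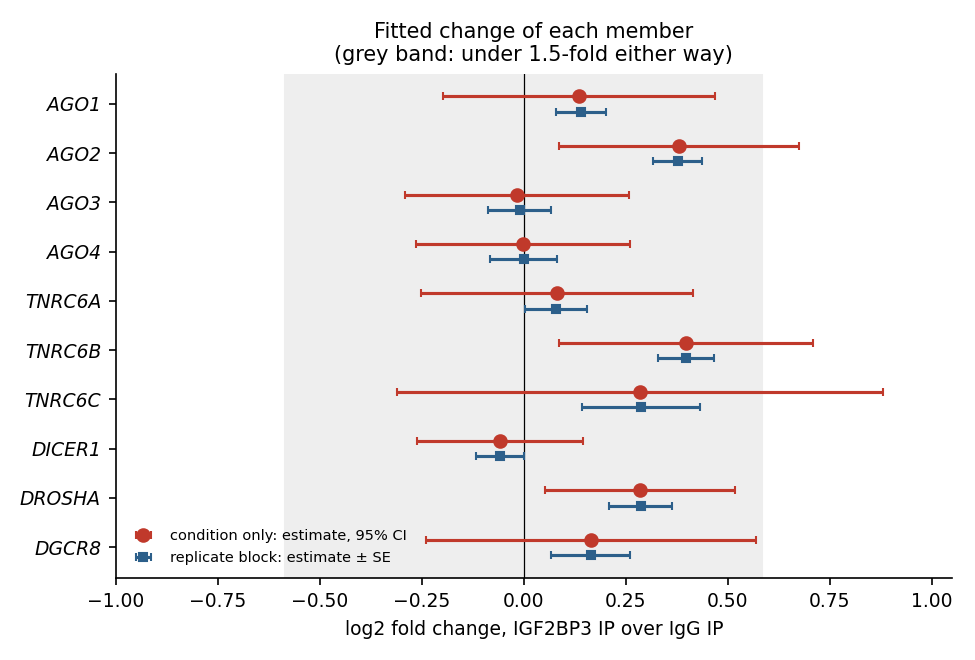
Fitted log2 fold change of IGF2BP3 IP over IgG IP for each mRNA. Red points and lines give the condition-only edgeR fit with its 95% confidence interval, blue squares and lines the fit with the replicate block ± its standard error, and the grey band marks changes under 1.5-fold. All 10 estimates lie within the band, from −0.06 (*DICER1*) to 0.40 (*TNRC6B*), and the block moved none of them by more than 0.01.

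The sequence features and the recovery values can be set side by side. *TNRC6B* and *AGO3*, with 21 and 18 CACACA matches and the longest CA runs, had log2 fold changes of 0.40 and −0.02. *DROSHA*, with 0 matches, had 0.285, and *DICER1*, with 1, had −0.06. *DICER1*, with 4 let-7 seed matches, had the lowest value, while *AGO2* had 2 and *TNRC6B* 0 with values of 0.38 and 0.40. In these 10 mRNAs the values did not follow the order of either count, and no test was made over so few.

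A ratio between paralogs or partners within the same library does not depend on library scaling. The 11 ratios examined were all pairs of Argonautes, all pairs of *TNRC6* genes, *DROSHA* over *DGCR8* and *DICER1* over *DROSHA*. For 3 of them the groups did not overlap. The share among other pairs of genes was not computed, so this number has no baseline here. The 11 ratios share members, so they are not independent. Each of the 3 also holds *AGO2*, *TNRC6B* or *DROSHA*, the members with an unadjusted p under 0.05 above, so they are not separate evidence. The log2 ratio of *AGO1* to *AGO2* counts was −0.07, 0.09 and 0.13 in the 3 IgG IP libraries and −0.17, −0.21 and −0.17 in IGF2BP3 IP. *AGO1* was thus lower relative to *AGO2* in every IGF2BP3 IP library, by 0.23 on average. The log2 ratio of *TNRC6A* to *TNRC6B* was 0.02, −0.11 and 0.17 in IgG IP and −0.35, −0.29 and −0.26 in IGF2BP3 IP, a difference of −0.32. For *DICER1* to *DROSHA* it was 1.95, 1.87 and 1.81 in IgG IP and 1.49, 1.62 and 1.45 in IGF2BP3 IP, a difference of −0.35. All 3 had the same sign in each pair of the same replicate number, which follows from the lack of overlap. Each had p = 0.10 in the exact two-sided permutation test, the smallest possible, and 0.367 after Benjamini-Hochberg adjustment over the 11. With TPM in place of counts the same 3 ratios overlapped between the groups, at −0.27, −0.18 and −0.07 on the log2 scale, while *AGO2* over *AGO4* (0.38) and *TNRC6A* over *TNRC6C* did not. The latter was 0.43 in TPM and −0.16 in counts, with the opposite sign. In counts the remaining 8 ratios overlapped, among them *AGO2* over *AGO3* (0.39) and *AGO2* over *AGO4* (0.37), which were positive in all 3 pairs.

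**Figure D3:**
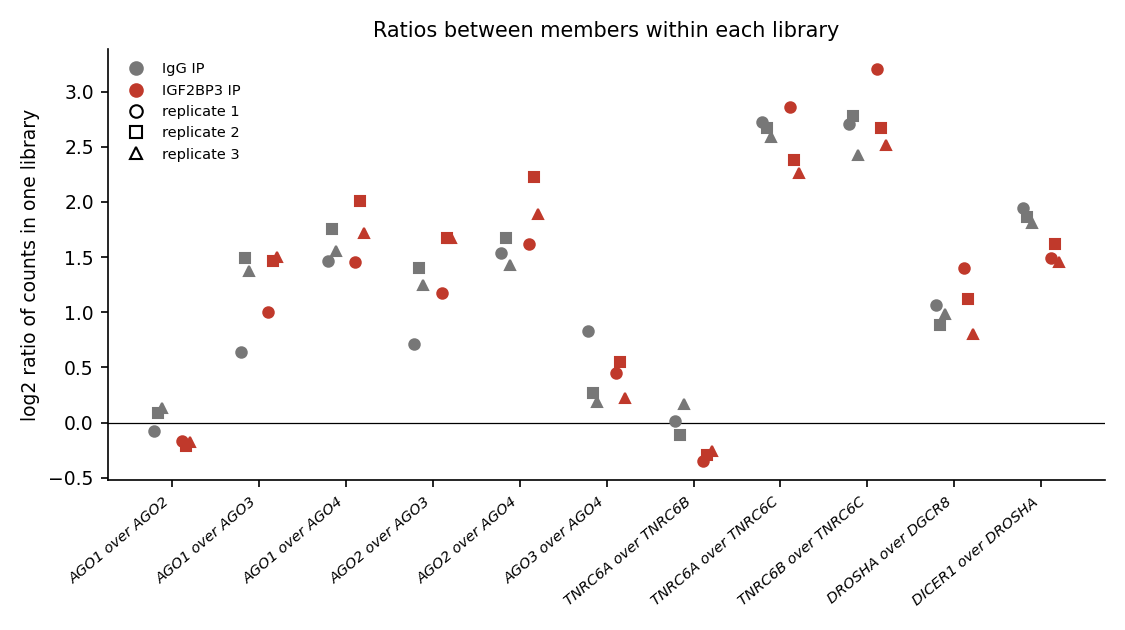
Log2 ratio of the counts of a pair of members within each library, for the 11 ratios. Grey is IgG IP, red is IGF2BP3 IP, and shapes mark replicates 1 to 3. The groups are separate for *AGO1* over *AGO2*, *TNRC6A* over *TNRC6B* and *DICER1* over *DROSHA*, with differences of −0.23, −0.32 and −0.35.

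Levels can be compared between genes only per length, so the deposited TPM values were used for this. In the IgG IP, *DICER1* (23.6 ± 6.76 TPM, SD, n = 3), *DROSHA* (19.4 ± 4.02), *AGO2* (18.0 ± 5.8) and *AGO1* (15.4 ± 5.75) came first. They were followed by *TNRC6A* (11.7 ± 1.72), *AGO3* (11.5 ± 2.65), *DGCR8* (7.73 ± 2.48), *AGO4* (6.63 ± 2.02), *TNRC6B* (5.22 ± 2.52) and *TNRC6C* (2.32 ± 0.883). Each gene's range overlapped that of the next in this order, except that *TNRC6B* (3.36 to 8.09 TPM) lay above *TNRC6C* (1.54 to 3.28 TPM). The mRNA of the scaffold with the highest log2 fold change was therefore among the least abundant of the 10 per length. In the IGF2BP3 IP the order was the same but for the first 3, where *AGO2* (26.2 ± 2.31 TPM) came before *DICER1* (24.3 ± 3.94) and *DROSHA* (21.3 ± 0.363).

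**Figure D4:**
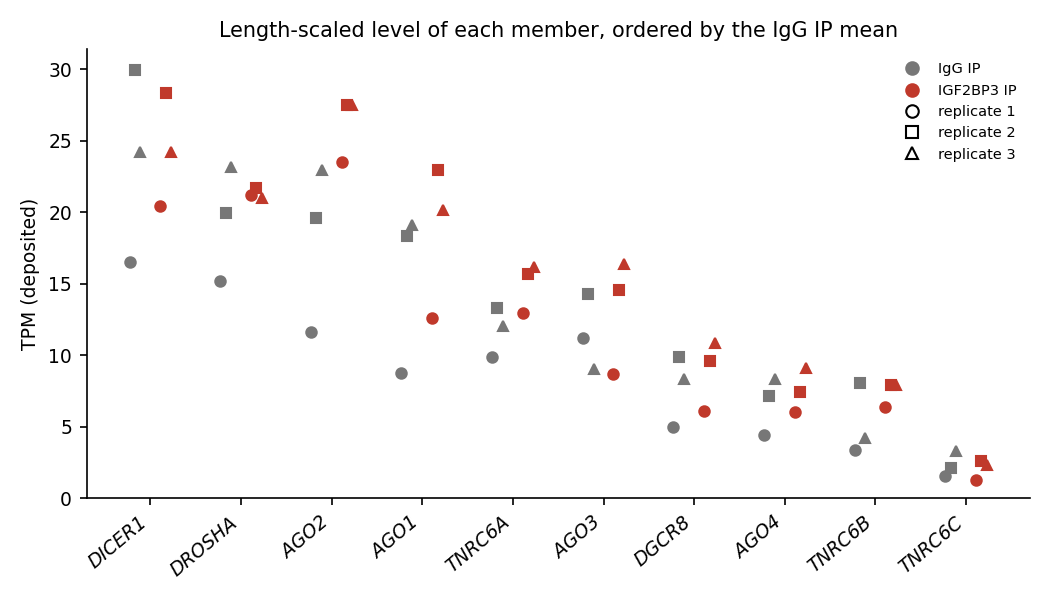
Deposited TPM of the 10 mRNAs in each library, ordered by the IgG IP mean. Grey is IgG IP, red is IGF2BP3 IP, and shapes mark replicates 1 to 3. Levels run from 23.6 TPM for *DICER1* to 2.32 TPM for *TNRC6C* in the IgG IP mean, and *AGO2* is the first in the IGF2BP3 IP at 26.2 TPM.

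Over the 6 libraries, the normalized log2 CPM of *AGO2* and *TNRC6B* followed each other (Pearson's r = 0.99), as did those of *TNRC6A* and *TNRC6C* (0.96). *AGO3* correlated negatively with each of the other 9 members, down to −0.87 with *DGCR8*. These values describe 6 libraries that share their preparation and the difference of replicate 1, and they are not tests. For the 3 members with the largest log2 fold changes, the genes most like them over all tested genes were *MXD1* and *PCNX2* for *TNRC6B* (r = 0.9975 and 0.9966), *CYB561A3* and *IRGQ* for *AGO2* (0.9985 and 0.9978), and *FOXN1* and *SYN3* for *DROSHA* (0.9943 and 0.9939). *FOXN1* held 0 to 32 counts per library.

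The rest of the pathway was examined through 46 further genes in 5 lists, of which 45 passed the expression filter. The other one, *LIN28A*, had 0 to 3 counts. None was called, where 1.16% of all tested genes were called higher and 0.0% lower. In edgeR's quasi-likelihood test 1 of the 45 had an adjusted p under 0.05 (1.4% of all genes) and 9 an unadjusted p under 0.05 (12.8% of all genes). DESeq2 and limma-voom also called 0. The median log2 fold change was −0.05, with 21 positive and 24 negative values.

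The list of nuclear processing and export held the one gene with an adjusted p under 0.05. *XPO5* encodes exportin 5, which carries the precursor hairpin out of the nucleus. It had 47.7, 56.7 and 53.0 CPM in the 3 IgG IP libraries and 72.5, 76.4 and 73.5 in IGF2BP3 IP. All 3 IGF2BP3 IP libraries lay clearly above those of the control. The log2 fold change was 0.50 (SE 0.09, adjusted p = 0.0392 in edgeR's quasi-likelihood test, Benjamini-Hochberg), under the 1.5-fold minimum. Its value lay between 0.40 and 0.56 in all 22 other fits. The adjusted p was 0.00301 with DESeq2, 1.51e-05 with the replicate block in edgeR and 0.000125 with the block in DESeq2. In edgeR it was 0.049 without IGF2BP3 IP replicate 1, 0.000363 without both replicate 1 libraries and 3.71e-05 with the GC correction and the block. Leaving out IgG IP replicate 1, 2 or 3 gave adjusted p-values of 0.059, 0.129 and 0.154, leaving out IGF2BP3 IP replicate 2 or 3 gave 0.221 and 0.211, and the GC correction without the block gave 0.0591 (edgeR, Benjamini-Hochberg). On both log2 TPM scales limma-trend gave 0.789 and 0.818. Of the other 6 genes of this list, 5 had negative values, and the lowest was −0.23 for *ERH*, a partner of the Microprocessor (552 ± 15.6 against 649 ± 45.9 CPM, SD, n = 3, adjusted p = 0.265 in the same edgeR test). *ERH* was lower in all 3 pairs of the same replicate number, with log2 differences of −0.355, −0.21 and −0.13, and its adjusted p was 0.00479 with the replicate block in edgeR, 0.00169 with it in DESeq2 and 0.0423 without both replicate 1 libraries.

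Among Dicer's partners and the factors that control precursors, 6 of 7 genes were tested, 0 had an unadjusted p under 0.05 and 5 had negative values. *TARBP2*, a double-stranded RNA-binding partner of Dicer, was highest at 0.10, and *PRKRA*, another such partner, lowest at −0.22 (adjusted p = 0.606 in edgeR's condition-only fit and 0.0179 with the replicate block). For *PRKRA* it was 0.0588 with the block in DESeq2 and 0.109 in edgeR without both replicate 1 libraries. In edgeR it was 0.0435 with the GC correction and the block and 0.00891 with a term for replicate 1. The *PRKRA* value was −0.037 without IgG IP replicate 1. In the list of Argonaute loading and turnover, 2 of 10 genes had an unadjusted p under 0.05. *ZSWIM8*, part of the ubiquitin ligase that degrades Argonaute engaged in target-directed microRNA decay, was highest. It had 6.61, 8.51 and 7.91 CPM in IgG IP and 9.65, 14.1 and 13.4 in IGF2BP3 IP, with no overlap. Its log2 fold change was 0.68 (SE 0.19, adjusted p = 0.14 in edgeR's quasi-likelihood test, Benjamini-Hochberg) on 61 to 187 counts per library. With the replicate block it was called (0.69, adjusted p = 0.000798), as was *MOV10*, a helicase that associates with Argonaute (0.67, adjusted p = 0.0401, 25 to 66 counts). With the GC correction added to the block neither was called, and *ZSWIM8* was at 0.49 (adjusted p = 0.017). The block in DESeq2 called 1 of the 45, *ZSWIM8* (0.67, adjusted p = 0.0456). *PTGES3*, a chaperone cofactor, was lowest at −0.13.

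In the deadenylation list, 2 of 12 genes had an unadjusted p under 0.05. *CNOT3*, a subunit of the CCR4-NOT deadenylase that TNRC6 proteins recruit, was highest at 0.44 (SE 0.18), and *CNOT7*, a catalytic subunit, lowest at −0.18 (0.12). In the list of decapping and P-bodies, the cytoplasmic granules in which silenced mRNAs gather, 2 of 10 had an unadjusted p under 0.05. *EDC3*, an enhancer of decapping, was highest at 0.32 (0.14) and *EIF4ENIF1* lowest at −0.19 (0.15). None of these 4 had an adjusted p under 0.05 in edgeR's condition-only fit. With the replicate block in edgeR *CNOT3* (0.0362), *CNOT7* (0.0261) and *EDC3* (0.0351) did, none of them at 1.5-fold, and with the GC correction added to the block none did (0.32, 0.531 and 0.194). Of all 45 genes, 5 had their IGF2BP3 IP values wholly above those of the IgG IP and 10 wholly below, against 12.0% and 8.69% of all tested genes. With the replicate block 12 of the 45 had an adjusted p under 0.05, 7 higher and 5 lower, where 16.2% of all genes had one. The medians of the 5 lists lay between −0.12 and 0.05, all below the 0.15 of the 10 members, and that difference was not tested.

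**Figure D5:**
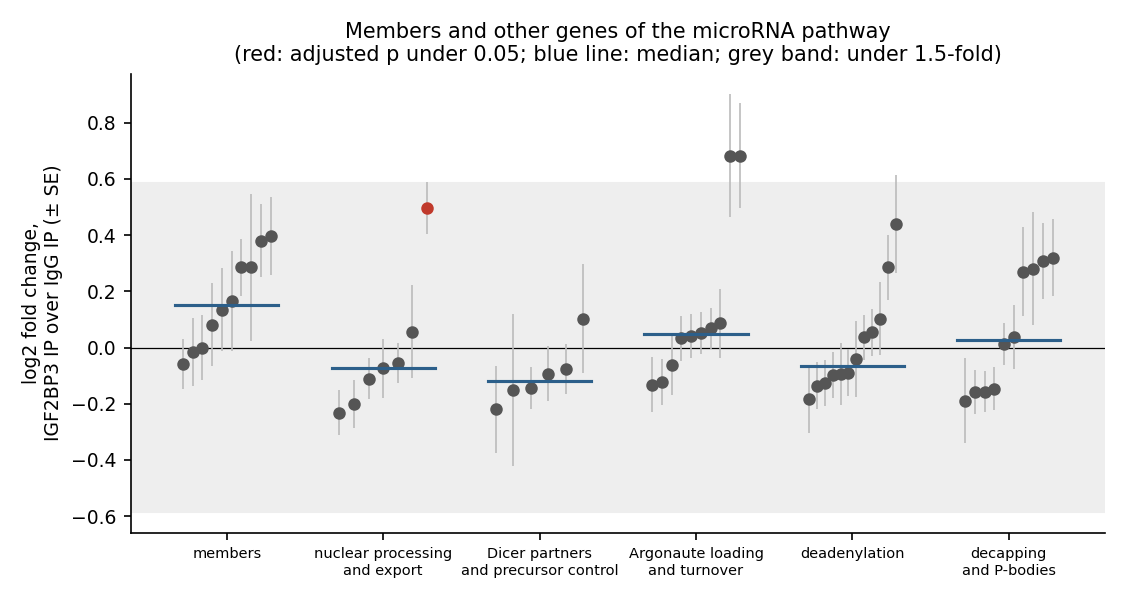
Fitted log2 fold change of IGF2BP3 IP over IgG IP (± standard error) for the 10 members and the 45 tested genes of the 5 other lists. Blue lines are list medians, the grey band marks changes under 1.5-fold, and red marks an adjusted p under 0.05. *XPO5* (0.50) is the one red point, and *ZSWIM8* and *MOV10* (both 0.68) are the only points above the band.

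Neighbouring genes could add reads to the members, since the sources used here do not state whether strand was used in counting. GENCODE version 44 lists 20 genes that overlap a member, and 9 of them had 0 counts in all libraries. *DICER1-AS1*, on the opposite strand of *DICER1*, held 40 to 71 counts against 1498 to 2795 on *DICER1*. *TRMT2A*, on the opposite strand at the end of *DGCR8*, held 57 to 131 against 185 to 415 on *DGCR8*. Neither *DICER1-AS1* nor *TRMT2A* touches an exon of the member's canonical transcript. None of the others held more than 7 counts.

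*DGCR8* also hosts microRNA hairpins in its own exons, which the Microprocessor is known to cut as part of its control of *DGCR8*. The mature sequences are printed with their seeds (bases 2 to 8) in capitals, and lie on the plus strand at chr22:20085797-20085818 (miR-3618), chr22:20086072-20086093 (miR-1306-5p) and chr22:20086112-20086129 (miR-1306-3p) of GRCh38.p14 (RefSeq). All 3 have different seeds.
hsa-miR-3618: uGUCUACAuuaaugaaaagagc
hsa-miR-1306-5p: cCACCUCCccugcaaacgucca
hsa-miR-1306-3p: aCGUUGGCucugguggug
The rows of *MIR3618* and *MIR1306* had 0 counts in all 6 libraries. Over the 1881 rows of microRNA genes, 375 had at least 1 count, and the libraries held 832 to 1143 counts on them in all. These are reads assigned to rows of microRNA genes, some of which lie within a host gene, as *MIR3618* and *MIR1306* do. How reads that overlap more than 1 gene were counted is not stated, so reads of precursor and host cannot be told apart. The levels of mature microRNAs were not analysed here.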

How the data were processed

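RIP-seq libraries from WaGa cells, 3 from IGF2BP3 IP and 3 from IgG IP, were compared, with groups and replicate numbers taken from the sample labels. Alignment to GRCh38 was done by the authors with STAR 2.7.9a, and quantification with RSEM and GENCODE version 37. They deposited whole-number counts per gene without normalization, and the program behind these counts is not given in the sources used here. The deposited TPM and FPKM values are the authors' RSEM estimates. No columns of the authors' own comparisons were used.

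After filterByExpr and TMM normalization, counts were fitted in edgeR 4.0.16 (R 4.3.3) by quasi-likelihood on condition alone (fold change of at least 1.5, Benjamini-Hochberg adjusted p under 0.05, all genes in one fit). The methods name DESeq2, which was run as an alternative (version 1.42.0). Standard errors (SE) were derived from the fitted value and its F statistic. CPM were computed with TMM-adjusted library sizes. Library totals ran from 9758759 to 14886414 counts. Single ratios were compared with exact permutation tests over libraries.

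Same-numbered libraries deviated together from their group means (gene-wise correlations 0.57, 0.28 and 0.23, in the order of the replicate numbers), but replicates 2 and 3 also did so when crossed (0.28 and 0.27). The labels do not say what a number shares, and the pairing comes from these values. Alternatives were the replicate block, RLE and upper-quartile factors, library totals, other filters, limma 3.58.1 (voom on counts, trend on log2 TPM), loess corrections for GC content and for effective length (from counts and FPKM), a term for replicate 1, and leaving out libraries. Adjusted p alone with the block was added after the data were seen.

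The members, the 46 further pathway genes, the markers and the rules were chosen with earlier results of these data known. Genes named are all members, in each pathway list the called genes and those with the highest and lowest log2 fold change, the 2 genes most correlated with each of the 3 members of largest change, and overlapping genes. *MOV10* was named after its value was seen. Coordinates and motifs come from GENCODE version 44 canonical transcripts on GRCh38. The test was checked on simulated data.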

Additional observations from a re-analysis of the deposited data

How the results depend on the processing

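No member was called in any of the 22 other fits, or in the condition-only fit after filterByExpr with the fold minimum dropped. With adjusted p alone and the replicate block, an alternative chosen after seeing the data, 3 members passed. For the 45 pathway genes the number called was 2 with the replicate block in edgeR and with replicate 1 as a term, 0 with the GC correction and the block, and 1 with the block in DESeq2, with no filter beyond 1 count, without both replicate 1 libraries and with no fold minimum. It was 12 with no fold minimum and the block (also chosen after seeing the data), and 0 to 1 when leaving out each library in turn, with 1 without IGF2BP3 IP replicate 1 (*ZSWIM8*, 0.83). Apart from *ZSWIM8* and *MOV10*, the replicate block changed no call of a named gene. Ratios without overlap numbered 3 to 6 when leaving out each library, with 6 without IGF2BP3 IP replicate 1. Groups of fewer libraries separate more readily, so these numbers cannot be set directly against the 3 found with all libraries. With all libraries, 5 ratios had the same sign in all pairs, as in a replicate block, and the 3 without overlap are among them.

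Of 440 values of 20 genes under 22 settings, 410 kept direction and call, 6 (all *ZSWIM8*) became called and 24 changed sign. Signs were read after rounding to 2 decimals, so *AGO4* (−0.001, from −0.158 to 0.207 over these settings) counted as having none, as did *AGO3* at 0.002 with limma-voom and *DICER1* at 0.004 with the GC correction. None of those 24 was called, and the cause was not tested. The length correction turned *AGO1* and *TNRC6A* to −0.048 each, where the median of all genes was −0.052. *AGO3* turned to 0.028 with library totals, where the median of all genes was 0.034. It turned to 0.065 with the GC correction (0.07 with the replicate block added) and 0.06 without both replicate 1 libraries. When leaving out each library it lay between −0.105 and 0.102. Leaving out each library gave −0.039 to 0.221 for *TNRC6A*, −0.011 to 0.302 for *DGCR8* and −0.011 to 0.322 for *TARBP2*. *TARBP2* also turned to −0.10 with the GC correction and −0.09 with that and the block, and *DICER1* to 0.006 with both. On log2(TPM + 1) and log2(TPM + 0.1) the median of all genes was 0.11 and 0.13, and the values were 0.16 and 0.17 for *AGO3*, −0.10 and −0.14 for *TNRC6C*, 0.072 and 0.076 for *DICER1*, 0.018 and 0.018 for *PTGES3*, and 0.165 and 0.166 for *CNOT7*. Relative to that median *DICER1* (−0.04 and −0.06) and *PTGES3* (−0.09 and −0.12) kept their sign.

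Over all genes the number called was 169, against 281 with DESeq2, 81 with the GC correction, 0 in both TPM fits, and 517 higher and 15 lower with the replicate block. Leaving out IGF2BP3 IP replicate 2 gave 0 and replicate 3 gave 23, and leaving out IgG IP replicate 2 gave 19 and replicate 3 gave 7. With 3 libraries a group, the intervals given for each gene limit the precision.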
